A study of Mus musculus with 26 samples.

Results

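Wif1, the gene of the secreted Wnt inhibitor WIF1, and 5 core genes of the Wnt pathway were followed in S49 cells given a cyclic AMP (cAMP) analog. The genes were Wif1, Lrp6, Gsk3b, Apc, Ctnnb1 and Tle1. They were measured by 12 probe sets, taken as every probe set whose only gene symbol was one of these 6, out of 22626 probe sets and 12393 named genes. Wif1 was chosen by its large rise in treated wild-type cells, so its values in those cells are a description with no test. The other 5 genes were listed for their place in the pathway.

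S49 cells come from a mouse T lymphoma. Their Kin- variant lacks the activity of protein kinase A (PKA) and is compared with the parent line to look for PKA-dependent responses. The loss of PKA and any other differences between these lines cannot be told apart here. Wild-type (WT) and Kin- cells either stayed untreated (0 h) or were exposed to 8-CPT-cAMP, a cAMP analog that enters cells, at 100 µM and for 2, 6 or 24 h. There were 26 arrays, with 4 per line for untreated cells and 3 per line for every one of the 3 treated times, and these small numbers bound the precision. Cells were sampled untreated at 0 h alone, so time in culture and exposure to the analog cannot be told apart within a line. The labels name no separate cultures for the arrays within a group, so a p-value here reflects spread from array to array, which may be technical. Each of WT and Kin- is a single cell line.

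A level here is the square root of the score that the authors deposited, treated by assumption as roughly like a log2 intensity. The scale is not given in the sources used here, so a change of 1 cannot be read as a doubling and no fold is printed. Changes are differences of mean levels ± SE from a limma model over all 22626 probe sets, and a change passed at a Benjamini-Hochberg adjusted p under 0.05. Levels of different probe sets were not compared as amounts of transcript, since brightness also depends on the probes. Some were placed against the median or lower quartile of all probe sets on an array (its column), and these places depend on the probes too.

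The arrays numbered 1 to 14 in the labels stood apart from those numbered 16 to 47. Once group means were removed, the first component held 35.5% of the remaining variance and separated these sets completely. Every group had arrays of both sets, and values within each set are given where a result moves with it. Of the T-cell markers 9 of 10 were measured, and Thy1, Cd3e, Cd3d, Cd3g, Ptprc and Cd8a lay above the column median on all 26 arrays, whereas Cd5 never did. Cd2 changed by −1.64, −2.09 and −1.36 in WT at 2, 6 and 24 h (adjusted p = 0.000288, 1.33e-05 and 0.000636) and was 2.00 higher in untreated Kin- (adjusted p = 9.94e-05). Thy1 changed by −0.97, −1.51 and −0.77 in WT (adjusted p = 0.000845, 4.12e-06 and 0.00254), and Cd3e, Cd3d, Cd3g and Ptprc rose by 0.76 to 1.10 at 24 h. The summed levels of the 9 T-cell markers ran from 80.3 to 82.2 in WT at 0 h, 77.0 to 79.7 at 2 h, 78.4 to 79.3 at 6 h and 79.6 to 84.2 at 24 h, and from 81.8 to 84.0 in Kin-. Of 14 measured markers of other cell types 10 never lay above that median and 1, Csf1r, always did. The summed levels of these 14 ran from 54.2 to 54.4 in untreated WT arrays, from 54.2 to 58.8 in treated WT arrays and from 54.8 to 61.4 in Kin- arrays. Pdgfrb averaged 3.38 in WT at 0 h, 6.35 in WT at 6 h and 6.50 in untreated Kin-, Itgam 4.50 in WT at 0 h and 6.61 at 24 h, and Krt18 4.37 ± 1.15 (SD, n = 4) in untreated Kin- against 3.51 to 3.65 in treated Kin-. The part of these markers in the results was not tested.

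In the canonical Wnt pathway, secreted Wnt proteins bind Frizzled receptors and the co-receptor LRP6. Without this signal a destruction complex, built on APC and Axin and holding the kinase GSK3β, marks β-catenin (the product of Ctnnb1) for degradation. With it, β-catenin accumulates and activates TCF and LEF factors in the nucleus, which co-repressors such as TLE1 otherwise hold silent. WIF1 binds Wnt proteins outside the cell and keeps them from their receptors. In developing T cells the pathway is known for its role in thymocyte maturation. PKA is known to phosphorylate both GSK3β and β-catenin, which arrays of messenger RNA do not measure.

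The upstream sequence of the members was examined because the analog mimics cAMP, and many cAMP-induced genes carry a cAMP response element (CRE) near their start. RefSeq windows of the 250 bases before the transcription start (build GRCm38.p6) were searched for 4 of the 6 genes, Wif1, Gsk3b, Ctnnb1 and Tle1. Apc and Lrp6 were not searched. The search of members left out a chromosome that the count over all windows kept. The short CRE motif TGACG, searched on both strands, occurred in 17.8% of 32851 such windows, and the full palindrome TGACGTCA, which contains it, in 1.55%. The first windows are those of Wif1 and Gsk3b, the members with the largest changes, at chr10:121033754-121034003 and chr16:38088751-38089000, both on the plus strand. Neither holds the motif, which says only that these letters are absent from this stretch.
Wif1: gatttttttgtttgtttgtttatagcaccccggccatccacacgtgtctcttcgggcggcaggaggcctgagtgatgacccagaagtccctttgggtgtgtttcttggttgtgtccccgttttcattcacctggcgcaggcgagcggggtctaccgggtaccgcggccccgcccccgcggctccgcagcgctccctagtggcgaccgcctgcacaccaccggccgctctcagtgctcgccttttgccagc
Gsk3b: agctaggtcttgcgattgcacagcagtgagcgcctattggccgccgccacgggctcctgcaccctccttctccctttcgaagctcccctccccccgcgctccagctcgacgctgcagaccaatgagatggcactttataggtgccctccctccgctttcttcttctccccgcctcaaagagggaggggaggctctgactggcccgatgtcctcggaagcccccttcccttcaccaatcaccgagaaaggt

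The motif occurred once in 1 of the 2 windows of Ctnnb1, 67 bases before the start, and once in that of Tle1, 107 bases before the start. The stretches around these matches lie at chr9:120933491-120933535 (plus strand) and chr4:72200976-72201020 (minus strand), and the capitals mark the motif, which reads CGTCA on the strand shown. The full palindrome was in none of these windows. A match is a description of the letters and not evidence of a bound site.
Ctnnb1: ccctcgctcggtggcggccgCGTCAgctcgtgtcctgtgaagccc
Tle1: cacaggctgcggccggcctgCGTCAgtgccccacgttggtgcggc

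Wif1 went from a moderate level in untreated WT cells to one of the widest ranges on the arrays. Its single probe set, 1425425_a_at, read 6.89 and 6.81 on arrays 1 and 13 and 5.70 and 5.72 on arrays 16 and 36 of untreated WT cells. After 2 h it read 10.11, 9.35 and 10.18, after 6 h 12.28, 12.01 and 12.13, and after 24 h 11.76, 10.61 and 11.50. No treated WT array overlapped an untreated one, and the groups at 2, 6 and 24 h did not overlap each other either. Wif1 spanned 8.80 over the 26 arrays, a wider range than that of 99.97% of all probe sets. The treated WT arrays at the top of this range are those for which Wif1 was chosen, so the rank is no separate finding. In bulk RNA, fewer cells with a transcript and less of it per cell cannot be told apart.

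**Figure D1:**
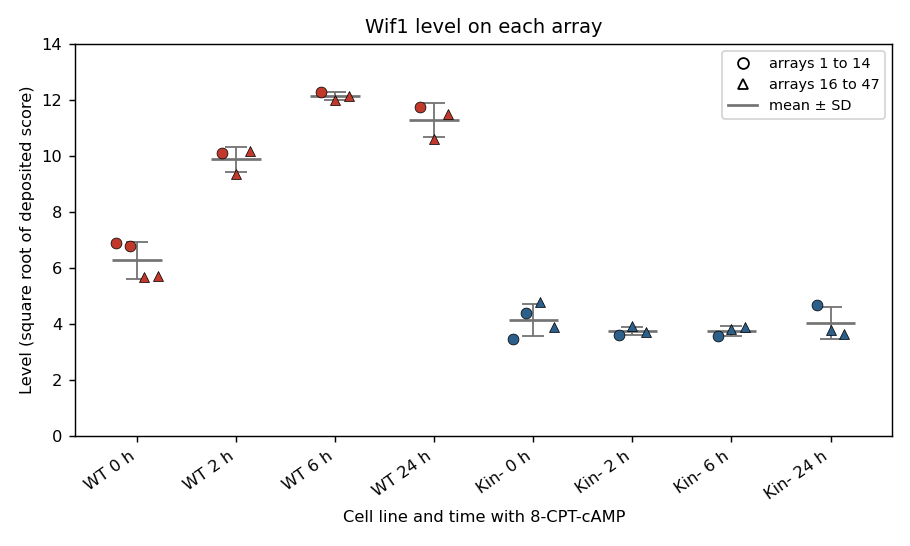
Wif1 level (square root of the deposited score, vertical axis) on each of the 26 arrays, by cell line and hours with 8-CPT-cAMP; circles are arrays 1 to 14, triangles arrays 16 to 47, and grey bars the mean ± SD of 3 or 4 arrays. Treated WT arrays lie between 9.35 and 12.28, untreated WT arrays between 5.70 and 6.89, and all Kin- arrays between 3.48 and 4.80.

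The Wif1 group means in WT were 6.28 ± 0.66 (SD, n = 4) at 0 h, 9.88 ± 0.46 (n = 3) at 2 h, 12.14 ± 0.14 (n = 3) at 6 h and 11.29 ± 0.60 (n = 3) at 24 h. Against 0 h, Wif1 stood 3.60 ± 0.35 (SE) higher at 2 h, 5.87 higher at 6 h and 5.01 higher at 24 h. From 2 to 6 h the Wif1 mean went up by 2.26 ± 0.38, and the mean at 24 h differed from that at 6 h by −0.85 ± 0.38. Within arrays 16 to 47 the differences from 0 h were 4.06, 6.36 and 5.35, and within arrays 1 to 14 they were 3.26, 5.44 and 4.92. The smaller values in arrays 1 to 14 go with the higher untreated Wif1 levels there, 6.85 on average against 5.71 in arrays 16 to 47.

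Kin- cells showed no such rise of Wif1. The untreated Kin- arrays read 3.48, 4.41, 4.80 and 3.90, those at 2 h 3.63, 3.92 and 3.71, at 6 h 3.56, 3.83 and 3.88, and at 24 h 4.68, 3.78 and 3.65. All 4 Kin- groups overlapped. The Kin- arrays took no part in the choice of Wif1, and its changes there were −0.40 ± 0.35 at 2 h (95% confidence interval −1.13 to 0.34), −0.39 at 6 h (−1.12 to 0.34) and −0.11 at 24 h (−0.84 to 0.62). Each had an adjusted p of 1 in limma. In these Kin- comparisons 0% of the 22626 probe sets passed at 2 h, 0% at 6 h and 0% at 24 h, while 489, 429 and 491 had an unadjusted p under 0.05. Under the other settings at most 3 probe sets passed in Kin- cells at 2 h. At 24 h the sets differed in sign: the Wif1 change was 0.73 within arrays 1 to 14, where the single treated array read 4.68 (adjusted p = 0.597), and −0.63 within arrays 16 to 47 (adjusted p = 0.823). At 2 and 6 h it was negative in both sets.

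Wif1 read lower in untreated Kin- than in untreated WT cells, without the analog. The means were 4.15 ± 0.58 (SD, n = 4) and 6.28 ± 0.66 (n = 4), a difference of −2.13 ± 0.32 (SE), and the groups did not overlap. The WT arrays at 0 h also entered the change for which Wif1 was chosen, so this difference is a description with no test. With the array set as a term it was −2.13 too. Within arrays 16 to 47 it was −1.36 and within arrays 1 to 14 −2.90, so Wif1 was lower in Kin- in both sets, by amounts that differ. From low to high, Wif1 was ordered Kin- at 2 h, 6 h, 24 h and 0 h, which do not differ beyond their spread, then WT at 0 h, 2 h, 24 h and 6 h.

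The genes whose levels followed Wif1 most closely were sought among the 12392 other named genes by Pearson correlation over the 26 arrays. Hcls1, a cortactin-related protein of blood cells, had r = 0.989, Lmna, the gene of lamins A and C of the nuclear envelope, 0.989, Zap70, a kinase of T-cell receptor signalling, 0.982, Frg1 0.980 and Carhsp1, a calcium-regulated RNA-binding protein, 0.979. These values rest on groups that share arrays and array sets, so they describe the pattern and carry no p. Over the 17 arrays left without treated WT cells r was 0.854 for Hcls1, 0.923 for Lmna, 0.847 for Zap70, 0.778 for Frg1 and 0.876 for Carhsp1. The untreated arrays of both lines entered this choice, so a lower level in Kin- is part of it. Lmna came nearest to it in size, with mean levels of 4.69, 8.49, 9.43 and 8.74 in WT at 0, 2, 6 and 24 h and 3.04 in untreated Kin-, while Frg1 moved over a narrow range, from 10.79 in untreated Kin- to 11.85 in WT at 6 h.

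For Lrp6, the co-receptor on the receiving cell, the 2 probe sets behaved differently. The brighter one, 1428500_at, read 6.77, 7.25, 7.72 and 7.55 in untreated WT, 6.69, 7.44 and 7.55 at 2 h, 7.45, 7.86 and 7.86 at 6 h and 7.42, 7.63 and 7.77 at 24 h. Its treated WT groups all overlapped the untreated one. In untreated Kin- it read 7.67, 7.75, 7.95 and 7.99, a difference from WT of 0.52 ± 0.19 (adjusted p = 0.198), and with the array set as a term the same 0.52 passed (adjusted p = 0.00959). With that term its step from 2 to 6 h in WT, 0.49, also passed (adjusted p = 0.0135, against 0.149 without it), as it did with the array series as a replicate block (adjusted p = 0.00488).

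The second Lrp6 probe set, 1451022_at, never lay above the column median. It read 4.37, 4.33, 4.34 and 4.50 in untreated WT and 4.78, 4.76 and 5.28 at 2 h, a rise of 0.55 ± 0.18 (limma adjusted p = 0.0406) with no overlap. Array 37, the highest, carried much of this: without it the Lrp6 change was 0.38 (adjusted p = 0.276). The rise also missed the threshold without array 1 (0.55, adjusted p = 0.0757), array 13 (0.53, adjusted p = 0.0872) or array 16 (0.54, adjusted p = 0.0804). At 6 h it read 4.58, 4.38 and 4.35 and at 24 h 4.23, 4.25 and 4.28. The brighter Lrp6 probe set changed by −0.10 ± 0.21 at 2 h, so the rise was seen by 1 of 2 probe sets.

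Gsk3b, the kinase of the destruction complex, showed a brief rise in WT cells. Its probe set, 1451020_at, read 7.28, 7.03, 6.93 and 7.49 in untreated WT cells and 9.52, 9.09 and 9.91 after 2 h. After 6 h it read 7.94, 8.29 and 7.97, and after 24 h 6.96, 6.83 and 6.98. The 2 h and 6 h arrays lay above every untreated array, and the 24 h arrays lay near the lowest of these. The rise was 2.32 ± 0.17 at 2 h (limma adjusted p = 6.27e-09) and 0.88 ± 0.17 at 6 h (adjusted p = 0.000716), and at 24 h the difference from 0 h was −0.26 ± 0.17 (adjusted p = 0.354).

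**Figure D2:**
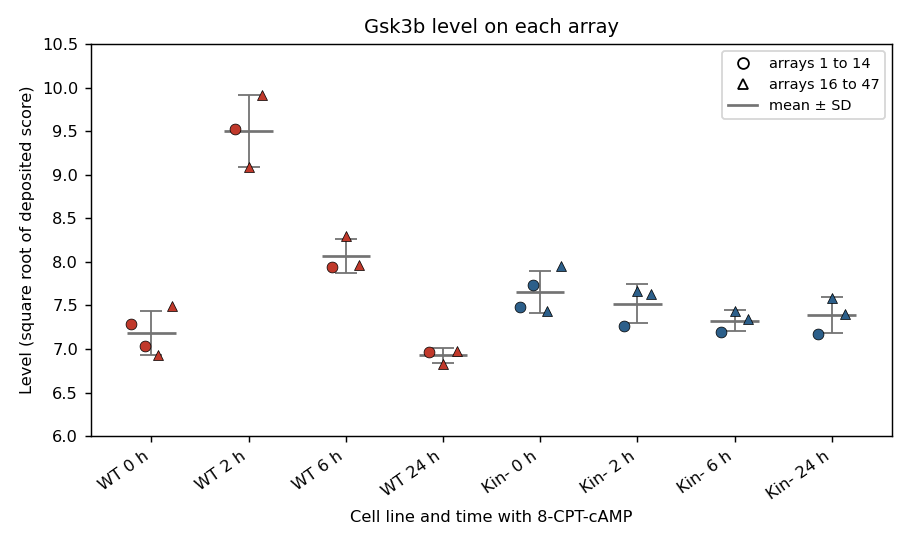
Gsk3b level (square root of the deposited score, vertical axis) on each of the 26 arrays, by cell line and hours with 8-CPT-cAMP; circles are arrays 1 to 14, triangles arrays 16 to 47, and grey bars the mean ± SD of 3 or 4 arrays. WT arrays at 2 h lie between 9.09 and 9.91 and at 6 h between 7.94 and 8.29, while WT arrays at 24 h lie between 6.83 and 6.98.

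Between successive times Gsk3b fell by 1.44 from 2 to 6 h (SE 0.19, limma adjusted p = 2.94e-05) and by 1.14 from 6 to 24 h (SE 0.19, adjusted p = 0.000118). In these steps 13% and 17.8% of all probe sets passed. Wif1, in contrast, had its highest mean at 6 h. Within arrays 16 to 47 the Gsk3b rise was 2.29 at 2 h (adjusted p = 0.000275) and 0.92 at 6 h (adjusted p = 0.0336). Within arrays 1 to 14, where each treated group had a single array assumed to vary as the untreated ones did, it was 2.36 (adjusted p = 0.0522) and 0.78 (adjusted p = 0.133).

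In Kin- cells Gsk3b read 7.49, 7.74, 7.43 and 7.95 at 0 h, 7.26, 7.66 and 7.63 at 2 h, 7.19, 7.43 and 7.35 at 6 h and 7.17, 7.58 and 7.40 at 24 h. Treated and untreated Kin- groups overlapped at every time. The changes were −0.13 ± 0.17 (95% confidence interval −0.50 to 0.23), −0.33 (−0.69 to 0.04) and −0.26 (−0.63 to 0.10), each with a limma adjusted p of 1. The Gsk3b response of WT exceeded that of Kin- by 2.46 ± 0.25 at 2 h (adjusted p = 1.27e-06) and by 1.21 ± 0.25 at 6 h (adjusted p = 0.00221). At 24 h the responses differed by 0.01 (95% confidence interval −0.51 to 0.52, adjusted p = 0.997). For these differences between lines 6.92%, 10.8% and 21.5% of all probe sets passed at 2, 6 and 24 h. Within arrays 16 to 47 the Gsk3b difference was 2.33 at 2 h (adjusted p = 0.0044) and 1.22 at 6 h (adjusted p = 0.0624), and within arrays 1 to 14 it was 2.71 (adjusted p = 0.116) and 1.20 (adjusted p = 0.181). Between the untreated lines Gsk3b was 0.47 ± 0.16 higher in Kin-, which did not pass (adjusted p = 0.154). Its order from low to high was WT at 24 h and 0 h, then the 4 Kin- groups, then WT at 6 h and 2 h, and neighbours in this order overlapped except WT at 6 h and 2 h.

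Apc, the scaffold of the destruction complex, was slightly higher in WT cells at 24 h. The brightest of its 3 probe sets, 1420956_at, read 7.31, 7.52, 8.05 and 7.95 in untreated WT cells, 7.67, 8.24 and 8.45 at 2 h, 7.58, 8.46 and 8.36 at 6 h and 8.14, 8.51 and 8.67 at 24 h. The groups at 2 and 6 h overlapped the untreated one and the group at 24 h did not. The rise at 24 h was 0.73 ± 0.25 (limma adjusted p = 0.0314). It missed the threshold without array 1 (0.60, adjusted p = 0.107), array 13 (0.67, adjusted p = 0.08), array 19 (0.70, adjusted p = 0.095) or array 39 (0.62, adjusted p = 0.14). It was 0.73 within arrays 1 to 14 (adjusted p = 0.167), and 0.73 with only the WT groups at 0 and 24 h in the fit (adjusted p = 0.0512).

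The second Apc probe set, 1450056_at, read 6.13, 6.48, 6.80 and 6.76 in untreated WT and 6.85, 7.21 and 7.17 at 24 h, a difference of 0.53 ± 0.20 (limma adjusted p = 0.0537) with no overlap. It passed with the array set as a term (0.49, adjusted p = 0.0427). The third, 1420957_at, stayed under the column median and differed by 0.23 ± 0.13 at 24 h (adjusted p = 0.232). In Kin- cells 1420956_at read 7.48, 7.93, 8.45 and 8.01 at 0 h and 7.54, 8.02 and 8.04 at 24 h. The WT response of this Apc probe set at 24 h exceeded that of Kin- by 0.83 (adjusted p = 0.117), and this passed with the array set as a term (0.83, adjusted p = 0.000524), within arrays 16 to 47 (0.79, adjusted p = 0.0137) and with the array series as a replicate block (0.78, adjusted p = 0.00189). On the other Apc probe sets, 1450056_at and 1420957_at, it was 0.50 (adjusted p = 0.284) and 0.35 (adjusted p = 0.233).

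Ctnnb1, the β-catenin gene, rose by a small amount in WT cells at 2 h on all 3 of its probe sets. The brightest, 1420811_a_at, read 12.21, 12.12, 12.54 and 12.42 at 0 h and 12.44, 12.79 and 12.76 at 2 h. The second, 1450008_a_at, read 10.19, 10.12, 10.60 and 10.32 at 0 h and 10.70, 10.82 and 10.91 at 2 h. The third, 1430533_a_at, read 9.01, 8.96, 9.50 and 9.09 at 0 h and 9.99, 9.62 and 9.81 at 2 h. The groups overlapped on the brightest probe set and not on the others. The Ctnnb1 rises were 0.34 ± 0.11 (limma adjusted p = 0.0474), 0.50 ± 0.13 (adjusted p = 0.0108) and 0.66 ± 0.18 (adjusted p = 0.0131) in that order.

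Single arrays moved these calls. The rise of Ctnnb1 on the brightest probe set missed the threshold without array 1 (0.30, adjusted p = 0.124), 13 (0.27, adjusted p = 0.158), 36 (0.37, adjusted p = 0.0508), 17 (0.28, adjusted p = 0.215) or 37 (0.29, adjusted p = 0.199). It also did so with the array series as a replicate block (0.27, adjusted p = 0.0556). The second was lost without array 37 (0.45, adjusted p = 0.0619). The third was lost without array 2 (0.57, adjusted p = 0.0581) and within arrays 16 to 47 (0.42, adjusted p = 0.193). All 3 changes kept a positive sign in each of these cases.

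Later the level of Ctnnb1 returned. The second probe set read 10.39, 10.95 and 10.64 at 6 h and 10.18, 10.26 and 10.09 at 24 h, and it fell by 0.48 between these times (SE 0.14, limma adjusted p = 0.0187). This fall missed the threshold without array 18 (−0.34, adjusted p = 0.142) or array 39 (−0.44, adjusted p = 0.0758). At 24 h the 3 probe sets differed from 0 h by −0.04, −0.13 and −0.30, and none passed. In Kin- cells at 2 h the second probe set read 10.10, 10.23 and 10.24, against 10.21, 9.97, 10.40 and 10.47 at 0 h. The WT response of this Ctnnb1 probe set at 2 h exceeded that of Kin- by 0.58 ± 0.19 (adjusted p = 0.0683), and by 0.58 with the array set as a term (adjusted p = 0.0249). On 1420811_a_at and 1430533_a_at this difference was 0.32 ± 0.16 (adjusted p = 0.317) and 0.64 ± 0.25 (adjusted p = 0.158), and neither passed.

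Tle1, a nuclear co-repressor of the TCF factors, gave readings at the bottom of the arrays. Its probe sets 1422751_at and 1434033_at ran from 2.67 to 2.87 and from 2.43 to 2.91 over the 26 arrays, under the lower quartile of the column on every one. Neither passed in any comparison, and at this brightness a change could not be read from them.

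Of the 11 probe sets of the 5 genes other than Wif1, 5 were higher and 0 lower at 2 h in WT, where 14.4% of all probe sets passed in either direction. These 5 probe sets belonged to 3 genes, Lrp6, Gsk3b and Ctnnb1, so they are not separate members. At 6 h 1 was higher, where 19.6% of all passed, and at 24 h 1 was higher, where 30% of all passed. None passed in Kin- cells at any of the 3 times in limma, and none had an unadjusted p under 0.05 there. None passed between the untreated lines, where 3.01% of all probe sets passed in either direction and 3 of the 11 had an unadjusted p under 0.05.

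**Figure D3:**
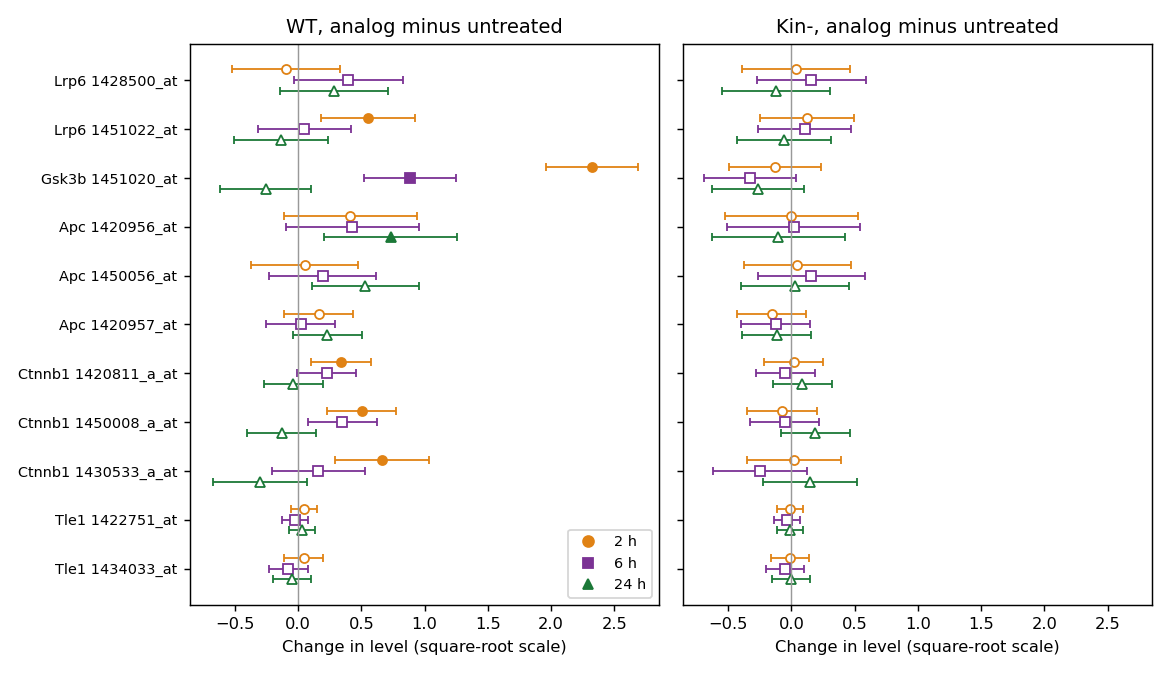
Change in level from 0 h (horizontal axis, square-root scale) with 95% confidence intervals for the 11 probe sets of Lrp6, Gsk3b, Apc, Ctnnb1 and Tle1 in WT (left) and Kin- (right) at 2, 6 and 24 h; filled symbols passed at an adjusted p under 0.05. Gsk3b at 2 h stands at 2.32 in WT, and no symbol is filled in Kin-.

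The rest of the pathway was described from 8 lists of its components and a list of target genes, each gene by its brightest probe set. Of 100 listed component genes 86 were measured. In WT cells 5 passed higher and 3 lower at 2 h, where 7.25% of all genes were higher and 8.44% lower. At 6 h 7 were higher and 4 lower (11% and 11.1% of all genes), and at 24 h 9 were higher and 5 lower (16.3% and 16.3%). Their median change was 0.08 at 2 h, −0.03 at 6 h and −0.0035 at 24 h, against 0.05, −0.03 and −0.0059 over all genes. Within arrays 1 to 14 alone the counts were 0 and 0 at 2 h, 0 and 0 at 6 h and 4 and 0 at 24 h. Within arrays 16 to 47 they were 9 and 2, 7 and 3, and 11 and 4, and with the array series as a replicate block 6 and 4, 7 and 6, and 12 and 7. The shares over all genes are the background for each list below. Between the untreated lines 0 were higher and 2 lower in Kin-, where 1.74% of all genes were higher and 1.73% lower. The 2 were Frat2 and Cby1, an inhibitor of β-catenin in the nucleus that differed by −0.53 ± 0.07 (limma adjusted p = 8.77e-05).

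Outside the cell, 1 of 19 measured Wnt ligands passed. Wnt5b, a ligand known mainly for signalling without β-catenin, changed by −1.82 ± 0.28 at 2 h (limma adjusted p = 9.01e-05) and −0.81 at 6 h (adjusted p = 0.0488), and stood at 0.02 from its untreated level at 24 h (adjusted p = 0.995). A second Wnt5b probe set changed by −1.0 at 2 h (adjusted p = 0.000104) and −0.56 at 6 h (adjusted p = 0.0136). The Wnt5b response at 2 h differed between the lines by −1.96 ± 0.40 (adjusted p = 0.00313), and the −0.88 at 6 h did not pass (adjusted p = 0.214). Among the 14 measured secreted antagonists and Kremens, the group to which Wif1 belongs, none rose. Apcdd1, a membrane-bound Wnt inhibitor, was the only one to pass and was lower at 2 h (−0.79 ± 0.20, adjusted p = 0.0079) and 24 h (−0.60, adjusted p = 0.0234). These values are from the brightest of its 4 probe sets. The Apcdd1 response differed between the lines by −0.87 at 2 h (adjusted p = 0.0687) and −0.60 at 24 h (adjusted p = 0.155), and neither passed. None of the 5 measured genes of the R-spondin axis passed, nor did either of the 2 genes of Wnt secretion.

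At the membrane, 1 of 13 measured receptors, Fzd4, rose at 2 h. Fzd4, a Frizzled receptor, rose by 1.02 ± 0.13 at 2 h (limma adjusted p = 1.22e-05), 0.44 at 6 h (adjusted p = 0.0215) and 1.30 at 24 h (adjusted p = 1.31e-07). This probe set averaged 4.48 in WT at 0 h and 5.50, 4.93 and 5.78 at 2, 6 and 24 h. Column medians ran from 5.40 to 5.53 over all arrays. A dimmer second Fzd4 probe set changed by 0.33 at 2 h and 0.01 at 24 h and did not pass. The Fzd4 response differed between the lines by 1.12 ± 0.19 at 2 h (adjusted p = 0.000577) and 1.37 at 24 h (adjusted p = 1.47e-05), while the 0.53 at 6 h did not pass (adjusted p = 0.0865). Ryk, a Wnt receptor of another family, rose by 0.84 at 24 h (adjusted p = 0.00353) on the brighter of its 2 probe sets. The Ryk response at 24 h differed between the lines by 0.65, which did not pass (adjusted p = 0.15).

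Inside the cell, 1 of 8 measured Dishevelled genes and regulators, Frat2, rose at all 3 times. None fell at 2 or 6 h, and at 24 h 2 rose and 1 fell. At 24 h Frat1 changed by 0.46 (limma adjusted p = 0.0161). Dvl2 changed by −0.20 (adjusted p = 0.0283) on the brighter of its 2 probe sets. For neither did the difference between the lines at 24 h pass (adjusted p = 0.372 and 0.429). Frat2 encodes a protein that binds GSK3 and inhibits its action on β-catenin. It rose by 1.82 ± 0.17 at 2 h (limma adjusted p = 1e-07), 0.81 at 6 h (adjusted p = 0.00103) and 1.08 at 24 h (adjusted p = 2.27e-05). Frat2 was lower in untreated Kin- than in untreated WT by 0.70 (change −0.70 ± 0.15, adjusted p = 0.0119), and its response differed between the lines by 2.23 ± 0.24 at 2 h (adjusted p = 2.24e-06). Frat2 thus rose at 2 h along with Gsk3b, whose product it binds, and remained above its untreated level at 24 h, when Gsk3b did not.

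Of the 10 other measured destruction-complex genes 2 rose and 0 fell at 2 h, 3 rose and 1 fell at 6 h, and 2 rose and 1 fell at 24 h. Csnk1d, a casein kinase, rose by 0.92 ± 0.10 at 2 h (limma adjusted p = 8.25e-07), 0.44 at 6 h (adjusted p = 0.00224) and 0.30 at 24 h (adjusted p = 0.0212). Tnks2, a tankyrase that promotes the breakdown of Axin, rose by 0.46 ± 0.11 at 2 h (adjusted p = 0.00442), 0.67 at 6 h (adjusted p = 8.64e-05) and 0.84 at 24 h (adjusted p = 2.05e-06). Gsk3a, the paralog of Gsk3b, did not rise with it: it changed by −0.17 ± 0.11 at 2 h (adjusted p = 0.388), −0.44 at 6 h (adjusted p = 0.00604) and −0.57 at 24 h (adjusted p = 0.000298). Axin2, both a scaffold of the complex and a target of the pathway, changed by 0.12 at 2 h, 0.62 ± 0.22 at 6 h (adjusted p = 0.0489) and 0.47 at 24 h (adjusted p = 0.119). The Axin2 response at 6 h differed between the lines by 0.64 ± 0.30, which did not pass (adjusted p = 0.251). Csnk1d had 5 probe sets and Tnks2 and Axin2 had 2 each, and only the brightest of each gene is given.

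Of the 15 measured nuclear partners 1 rose and 1 fell at 2 h, 2 rose and 2 fell at 6 h, and 3 rose and 2 fell at 24 h. Over all genes 7.25% rose and 8.44% fell at 2 h, 11% and 11.1% at 6 h, and 16.3% and 16.3% at 24 h. Tle4, a co-repressor of the same family as Tle1, rose by 1.59 ± 0.31 at 2 h (limma adjusted p = 0.000856), 1.32 at 6 h (adjusted p = 0.00314) and 1.74 at 24 h (adjusted p = 0.000108). The second Tle4 probe set rose by 0.57 at 2 h (adjusted p = 0.000179) and 0.55 at 24 h (adjusted p = 6.78e-05), and its change of 0.19 at 6 h did not pass (adjusted p = 0.187). The Tle4 response differed between the lines by 1.57 at 2 h (adjusted p = 0.0299) and 1.87 at 24 h (adjusted p = 0.0028), and the 1.14 at 6 h did not pass (adjusted p = 0.113). Tle6, another family member, changed by −1.03 ± 0.41 at 2 h (adjusted p = 0.112), −2.40 at 6 h (adjusted p = 0.000191) and −0.64 at 24 h (adjusted p = 0.324). The Tle6 response at 6 h differed between the lines by −2.18 ± 0.58 (adjusted p = 0.0173).

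**Figure D4:**
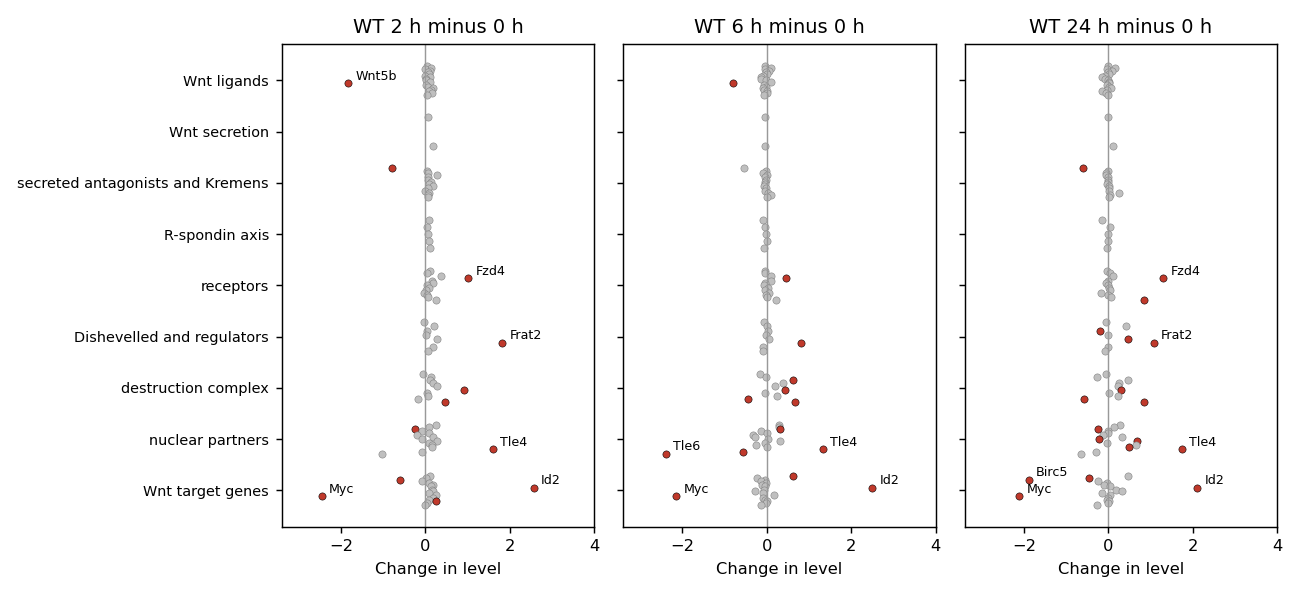
Change in level from 0 h in WT cells (horizontal axis, square-root scale) at 2, 6 and 24 h for each measured gene of the 9 lists (rows), each gene by its brightest probe set; red points passed at an adjusted p under 0.05, grey points did not, and vertical spread within a row only separates the points. Most genes lie near 0, with Wnt5b at −1.82 and Frat2 at 1.82 at 2 h.

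Of the 18 measured target genes of the pathway 2 rose and 2 fell at 2 h, 2 rose and 1 fell at 6 h, and 1 rose and 3 fell at 24 h, beside the same 7.25% and 8.44%, 11% and 11.1%, and 16.3% and 16.3% of all genes. Within arrays 16 to 47 these target counts were 5 and 2, 2 and 1, and 2 and 2, and within arrays 1 to 14 they were 0 and 1, 0 and 1, and 1 and 2. Many of these genes answer to other signals too. Id2, an inhibitor of helix-loop-helix factors, rose by 2.57 ± 0.31 at 2 h (limma adjusted p = 3.46e-06), 2.50 at 6 h and 2.11 at 24 h. Myc, a growth-promoting transcription factor, changed by −2.46 at 2 h (adjusted p = 8.58e-06), −2.14 at 6 h (adjusted p = 3.2e-05) and −2.12 at 24 h (adjusted p = 1.4e-05). Birc5, a survival and mitosis gene, changed by −0.61 at 2 h (adjusted p = 0.016), −0.05 at 6 h (adjusted p = 0.886) and −1.89 at 24 h (adjusted p = 1.62e-08). These targets moved in both directions, and none passed between the untreated lines.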

How the data were processed

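Messenger RNA of untreated and treated WT and Kin- S49 cells was measured on 26 arrays, with groups and array numbers taken from the labels. The authors deposited 1 table of processed scores, 1 column per array; how these scores were made, and their scale, is not given in the sources used here. The deposited scores ran from 0.375 to 267. Their square root (0.612 to 16.4, column medians 5.40 to 5.53) was used as the level, an assumption made from this range. Probe sets were named from the platform annotation, 20380 of 22626 with a single symbol, 691 with several and 1555 with none. No probe set with several symbols named a member. A limma 3.58.1 model (R 4.3.3; lmFit and eBayes, 1 mean per group, 8 groups, no covariate) was fitted to all probe sets for 12 contrasts, with Benjamini-Hochberg adjustment over all probe sets per contrast and a threshold of 0.05. Wif1 values that use WT arrays are given without a p. The script was tested on simulated data.

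The members and the lists were chosen with earlier results of these data known. Named genes were all members, the 5 genes most correlated with Wif1, and list genes that passed with a change of at least 1 in a WT time against 0 h or between the untreated lines, at most 6 per list. Other list genes named beside them (Apcdd1, Ryk, Frat1, Dvl2, Cby1, Csnk1d, Tnks2, Gsk3a and Axin2) were chosen after their values were seen. Alternatives were other powers of the score and its log2, quantile normalization, the array set as a term or each set alone, the series of consecutive array numbers as a block, only the contrast's groups, a filter on dim probe sets, and each array left out in turn, the last for members only. Upstream windows came from RefSeq (GRCm38.p6), matched by symbol.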

Additional observations from a re-analysis of the deposited data

Results flagged for a closer look

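The Wif1 response differed between the lines by 4.00 at 2 h and 6.25 at 6 h (WT minus Kin-). Most of this came from WT, where the changes were 3.60 and 5.87. In Kin- they were −0.40 (95% confidence interval −1.13 to 0.34) and −0.39 (−1.12 to 0.34), and treated and untreated arrays overlapped. The difference between the lines was not tested, since Wif1 was chosen by its rise in WT.

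The Gsk3b response differed between the lines by 2.46 at 2 h and 1.21 at 6 h, by the interaction test of the limma model (adjusted p = 1.27e-06 and 0.00221). The WT arrays were all above the untreated ones at both times, and the Kin- groups overlapped.

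On Tle1 probe set 1422751_at, array 36 of untreated WT cells read 2.77 against a mean of 2.76 on the other 3, a gap that took up 0.933 of a very narrow range. It was 1 of 24 groups of 4 arrays examined in this way, and chance marks about 1 in 20. The probe set lies under the lower quartile of the column on every array.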

How the results depend on the processing

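Of 144 member changes, none that had passed turned its sign under any alternative. The 1428 values under other settings held 1348 on the same side of the threshold or within the spread, 24 that lost a call (2 of them for the Wif1 difference between untreated lines, which the text gives without a test), 25 that gained one and 31 Wif1 values that moved, 24 of them under settings in other units, which fixes their move, and 7 by more than 1 SD on the same scale. Leaving out each array in turn gave 1248 values, of which 17 lost and 9 gained a call. Among changes that had not passed, 184 values turned their sign.

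The Wif1 rises in WT depend in size on the unknown scale: at 2, 6 and 24 h they were 15.3, 26.5 and 22.2 at power 0.75 of the score, 58.1, 107.7 and 88.0 in untransformed scores and 1.32, 1.92 and 1.70 in log2 of the score. With 1 array left out they ranged from 3.41 to 3.87, 5.67 to 6.07 and 4.78 to 5.35. At 6 h the rise was 6.36 within arrays 16 to 47 and 5.44 within arrays 1 to 14. The difference of Wif1 between untreated lines was −1.36 within arrays 16 to 47 and −2.90 within arrays 1 to 14, and −2.35 to −1.91 with 1 array left out. Within arrays 1 to 14 the Gsk3b rises of 2.36 and 0.78 and the differences from Kin- of 2.71 and 1.20 at 2 and 6 h missed the threshold, as did the difference at 6 h within arrays 16 to 47 (1.22). Each set alone holds fewer arrays.

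Whole-table counts moved by over 1.5 times too. Within arrays 1 to 14, 235, 719 and 3183 probe sets passed in WT at 2, 6 and 24 h, against 3249, 4441 and 6780. For 6 h against 2 h, 2948 became 5180 with the set as a term, 5363 within arrays 16 to 47, 5433 with the series as a block, 1335 with the contrast's groups only and 0 within arrays 1 to 14. For 24 h against 6 h, 4028 became 1883 with the contrast's groups only and 0 within arrays 1 to 14. Between untreated lines 680 became 1354, 1249, 410 and 0 (set term, arrays 16 to 47, contrast's groups, arrays 1 to 14). For the difference between lines at 2 h, 1566 became 2616 with the set term, 2428 within arrays 16 to 47, 2616 with the block and 1 within arrays 1 to 14. At 6 h 2444 became 3715, 3828 with the block and 1 within arrays 1 to 14, and at 24 h 4859 became 722 within arrays 1 to 14. In Kin- at 2 h 1 passed in log2, 3 after quantile normalization and 1 with the set term, against 0. The labels give groups no shared replicate numbers, and the replicate block rests on consecutive array numbers alone.

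Probe sets near the bottom of the arrays, those of Tle1 above all, limit what can be seen there.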
